A study of Rattus norvegicus with 9 samples.

Results

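The genes described here are 37 genes of the interferon response and of antigen presentation through class I of the major histocompatibility complex (MHC), measured by RNA sequencing in cultured rat cortical neurons. They were chosen by symbol from a list, without a measured value in the rule but with earlier results of these data known. All 37 were found among the 22050 genes of the deposited tables, which pair each symbol with a rat Ensembl identifier. The cells were primary cortical neurons of Sprague Dawley rats, taken at embryonic day 19, and there were 9 libraries in 3 groups of 3. Untreated cultures were the controls. The second group was kept without glucose or pyruvate at 1% oxygen for 4.5 h and was then put back in regular medium at normal oxygen, an injury called oxygen-glucose deprivation (OGD) that stands in for stroke in culture. The third group was given Wnt3a (100 ng/ml) and Rspondin 1 (50 ng/ml) under OGD and normal oxygen, with a treatment of 24 h. Wnt3a is a secreted Wnt ligand, and Rspondin 1 is a secreted protein that amplifies Wnt signalling. The length and oxygen level of the deprivation are stated for the group with OGD alone, and no time of harvest is stated. The labels do not say whether the 3 libraries of a group came from separate cultures or embryos, so p-values measure the spread between these libraries, which may be technical. The study asked how Wnt3a plus Rspondin 1 alters gene regulation in neurons under OGD.

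Interferons are secreted proteins that warn cells of infection. Type I interferons bind the receptor pair Ifnar1 and Ifnar2, and interferon gamma binds Ifngr1 and Ifngr2. Both signal through Janus kinases to STAT proteins, which, with factors of the IRF family, enter the nucleus and switch on a large set of genes, known together as interferon-stimulated genes. Some of these sense or block viral RNA. Others make up the route by which the immunoproteasome cuts proteins into peptides, the transporter Tap1/Tap2 moves the peptides into the endoplasmic reticulum, and MHC class I molecules with B2m show them at the cell surface. In the healthy brain, neurons are known for low class I expression, while glial cells respond readily to interferons.

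Libraries held 14285914 to 25048521 counts. For a gene without a read, 3 counts is the upper limit, which is 0.12 to 0.21 CPM (counts scaled to library size), and this limit covers counting error only. Of the 35 members with enough reads for the test, 31 were higher in OGD than in the controls, 1 was lower and 3 did not pass (edgeR quasi-likelihood test, Benjamini-Hochberg adjusted p below 0.05). OGD changed most of the transcriptome: 36.3% of the 13693 tested genes were higher and 36.8% were lower. The 88.6% of tested members that were higher stands beside that 36.3%. Since the members were chosen with earlier results known, these shares are a description and not a test of enrichment. Genes with few control reads enter the test only through groups where they are higher, which partly sets such counts. Bst2, Irf8 and Oas1a had as few as 5, 5 and 2 reads in a control library. The median log2 change was 1.18 over the tested members and 0.02 over all tested genes. For 29 members all 3 OGD libraries lay above all 3 control libraries in FPKM (fragments scaled by gene length and library size, the authors' measure of level), which held for 40.7% of all tested genes. For 1 member, Ifngr2, the OGD libraries all lay below the controls, as for 34.6% of all tested genes. In the authors' deposited table, 29 of the 37 members had a false discovery rate below 0.05 between these groups, the lower Ifngr2 included. Stat2 (0.0567), Dhx58 (0.0537) and Isg15 (0.0825), called higher here, were above that rate. The matching share of all genes in the authors' table was not computed. Ratios of group means in FPKM run a little above those in scaled CPM. The OGD to control ratio in scaled CPM was 0.917 to 0.96 of that in FPKM over the 35 members. Ifit3 and Oasl had too few reads. Ifit3, an antiviral tetratricopeptide protein, had 0, 2 and 1 reads in controls, 1, 3 and 1 after OGD, and 9, 4 and 2 with Wnt3a plus Rspondin 1. Oasl, an oligoadenylate synthetase-like protein, had 1, 0 and 3 reads, then 1, 2 and 8, and then 4, 2 and 2. Neither was tested.

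The upstream sequences of 6 members are shown because they come from different steps of the pathway and carry the motifs through which interferon-activated factors are known to act. RefSeq windows on the rat build GRCr8, from 250 bases before to 50 after the annotated start, were found for 30 of the 37 members. Irf2, Dhx58, Ifit2, Mx2, Isg15, Usp18 and Nlrc5 had no window. Each line gives only the 250 bases before the start, 5′ to 3′ on the gene's strand. The stretches are B2m at chr3:129549080-129549329 on the plus strand, Psmb10 at chr19:50743293-50743542 on the minus strand and Tap1 at chr20:4668544-4668793 on the minus strand. Bst2 lies at chr16:18254968-18255217 on the minus strand, Gbp2 at chr2:234005477-234005726 on the plus strand and Irf1 at chr10:38417685-38417934 on the plus strand. Capitals mark matches to 3 motifs, searched on both strands of the windows.
B2m: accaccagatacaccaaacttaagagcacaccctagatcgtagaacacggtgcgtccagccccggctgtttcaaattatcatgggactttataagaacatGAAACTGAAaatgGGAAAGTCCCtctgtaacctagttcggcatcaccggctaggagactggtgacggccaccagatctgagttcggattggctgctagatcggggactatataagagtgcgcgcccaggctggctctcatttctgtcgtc
Psmb10: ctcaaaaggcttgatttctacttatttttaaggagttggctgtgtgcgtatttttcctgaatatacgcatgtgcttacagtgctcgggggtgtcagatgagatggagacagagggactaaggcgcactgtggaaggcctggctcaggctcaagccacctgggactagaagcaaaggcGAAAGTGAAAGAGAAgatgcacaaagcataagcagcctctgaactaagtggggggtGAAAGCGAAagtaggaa
Tap1: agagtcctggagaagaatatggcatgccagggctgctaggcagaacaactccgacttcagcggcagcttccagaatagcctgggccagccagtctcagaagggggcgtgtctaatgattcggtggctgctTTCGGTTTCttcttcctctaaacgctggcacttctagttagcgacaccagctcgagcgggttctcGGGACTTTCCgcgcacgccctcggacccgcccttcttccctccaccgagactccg
Bst2: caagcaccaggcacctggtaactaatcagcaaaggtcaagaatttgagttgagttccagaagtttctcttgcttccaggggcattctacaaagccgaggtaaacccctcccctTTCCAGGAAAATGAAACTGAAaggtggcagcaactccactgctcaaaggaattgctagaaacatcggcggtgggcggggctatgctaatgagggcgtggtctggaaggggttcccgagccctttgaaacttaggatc
Gbp2: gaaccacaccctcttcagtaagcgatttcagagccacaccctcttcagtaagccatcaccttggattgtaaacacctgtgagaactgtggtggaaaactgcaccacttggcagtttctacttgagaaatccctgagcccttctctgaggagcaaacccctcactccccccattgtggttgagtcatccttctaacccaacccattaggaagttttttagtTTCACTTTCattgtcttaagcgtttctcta
Irf1: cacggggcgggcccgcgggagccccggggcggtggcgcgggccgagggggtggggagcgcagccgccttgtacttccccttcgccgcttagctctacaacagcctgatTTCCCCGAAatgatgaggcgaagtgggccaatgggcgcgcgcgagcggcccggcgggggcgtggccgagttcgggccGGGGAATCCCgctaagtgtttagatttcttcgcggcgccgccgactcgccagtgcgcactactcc

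The first motif, GAAANNGAA, is the core of the interferon-stimulated response element (ISRE), which proteins of the IRF family bind. It was found in 15 of the 30 member windows (50%) and in 3251 of all 33469 windows (9.71%). Psmb10 held 3 matches, the nearest one starting at position -17 from the gene start, and B2m held 1 at -150. In Psmb10 and in Bst2 some matches overlap each other, and in Bst2 one also overlaps the second motif. That motif, TTCNNNGAA, is the gamma-activated sequence (GAS) bound by STAT dimers. It was found in 8 member windows (26.7%), Irf1 among them, and in 8.87% of all windows. The third motif was the kappaB consensus of the NF-kappaB family, found in 7 member windows (23.3%) and in 7.51% of all windows. B2m, Tap1 and Irf1 each show a kappaB match beside an ISRE or GAS match, without overlap. Tap1 and Psmb9 start 457 bases apart on opposite strands, so their windows share 44 bases. A match describes letters in a window. Whether any factor was bound there was not measured.

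Among the 4 interferon receptor chains, 2 rose, 1 fell and 1 did not pass the test. Ifnar1, the chain of the type I receptor that pairs with Tyk2, measured 36.89, 38.67 and 38.46 FPKM in controls, 59.81, 59.8 and 64.83 after OGD, and 57.25, 62.52 and 62.95 with Wnt3a plus Rspondin 1. Every OGD library was above every control, and the fitted log2 change was 0.61 ± 0.07 (SE, edgeR adjusted p = 3.07e-06). Ifnar2, its partner, was at 7.75 ± 0.292 FPKM (SD, n = 3) in controls and 11.3 ± 1.19 after OGD, a log2 change of 0.46 ± 0.11. Ifngr2, the signalling chain of the interferon gamma receptor, went the other way. It measured 19.5, 19.44 and 19.99 FPKM in controls and 10.59, 11.74 and 12.09 after OGD, and 12.1, 11.62 and 11.25 in the third group. Its control and OGD libraries did not overlap, and it fell after OGD by 0.86 on the log2 scale (SE 0.08, edgeR adjusted p = 5.54e-07). Ifngr1, the chain of that receptor that binds the ligand, was at 12.8 ± 0.227 and 12.4 ± 0.7 FPKM (SD, n = 3) in control and OGD, and did not pass (log2 -0.13 ± 0.09, edgeR adjusted p = 0.201).

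All 8 members of the STAT and IRF families rose. Stat3, which relays interleukin-6 family cytokines and also responds to interferons, had the highest level of them after OGD. It measured 26.59, 27.45 and 22.42 FPKM in controls, 70.57, 66.45 and 69.86 after OGD, and 64.95, 63.94 and 71.47 with Wnt3a plus Rspondin 1. The control and OGD libraries were well apart (log2 1.35 ± 0.09, edgeR adjusted p = 2.05e-08). Stat2, the STAT particular to the interferon pathways of types I and III, differed little: 20.4 ± 2.04 FPKM in controls and 25.8 ± 1.56 after OGD (SD, n = 3), a log2 change of 0.25 ± 0.09 (edgeR adjusted p = 0.0295). Its adjusted p was 0.0564 to 0.116 without control replicate 2, control replicate 3, OGD replicate 1 or OGD replicate 2. Irf9, an IRF that acts downstream of the type I receptor, had a log2 change of 0.73 ± 0.13, from 7.49 ± 0.994 to 13.2 ± 0.33 FPKM.

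The remaining IRF genes differed widely in level. Irf1, an early interferon target that activates class I genes, rose by a log2 of 1.00 ± 0.17, from 3.74 ± 0.91 to 7.89 ± 0.771 FPKM. Irf2, which competes with IRF1 for its sites, rose by 1.16 ± 0.09 (7.7 ± 0.352 to 18.7 ± 0.717 FPKM). Irf3, present in most cells and activated by phosphorylation, rose by only 0.35 ± 0.09 (22.8 ± 0.917 to 31.0 ± 2.6 FPKM). Irf7, the amplifier of type I interferon production, measured 1.34, 0.45 and 0.57 FPKM in controls, 2.02, 1.89 and 1.7 after OGD, and 3.55, 2.2 and 1.84 in the third group. The first control library stood above the other controls, and the first library of the third group was the highest of all 9. The log2 change of Irf7 in OGD was 1.15 ± 0.36 (edgeR adjusted p = 0.0122). It was 1.77 without control replicate 1, and the adjusted p was 0.0545 without control replicate 3. Irf8, a factor of microglia and other myeloid cells, was low throughout, at 0.197 ± 0.121 FPKM in controls and 0.683 ± 0.215 after OGD (log2 1.81 ± 0.42, edgeR adjusted p = 0.00184).

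All 4 RNA sensors and their regulators rose. Ifih1, which encodes the sensor MDA5 of long double-stranded RNA, measured 1.38, 1.4 and 1.4 FPKM in controls, 3.31, 4.8 and 4.02 after OGD, and 4.55, 4.1 and 3.96 with Wnt3a plus Rspondin 1. The control and OGD libraries were apart (log2 1.46 ± 0.14, edgeR adjusted p = 8.26e-07). Trim25, the ubiquitin ligase that acts on RIG-I, rose by 1.66 ± 0.26, from 1.51 ± 0.637 to 5.08 ± 0.641 FPKM. For the other two, libraries overlapped between the groups. Dhx58, which encodes the RIG-I-like protein LGP2, measured 3.25, 1.41 and 1.76 FPKM in controls and 3.51, 3.93 and 3.11 after OGD. Its first control library lay within the OGD range. The log2 change of Dhx58 was 0.62 ± 0.26 (edgeR adjusted p = 0.0449), and 1.06 without control replicate 1. It did not pass without control replicate 2 or 3, OGD replicate 1 or 2, or replicate 2 of the third group (adjusted p 0.0616 to 0.15). Eif2ak2, which encodes PKR, the kinase that halts translation on double-stranded RNA, measured 5.73, 4.96 and 5.46 FPKM in controls and 5.73, 10.13 and 8.34 after OGD. The first OGD library equalled the highest control. Its log2 change was 0.53 ± 0.16 (edgeR adjusted p = 0.0111), and 0.33 without OGD replicate 2 (adjusted p = 0.067).

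Of 7 antiviral effectors with enough reads, 6 rose and 1 did not pass. Bst2 (tetherin), which holds budding virus at the cell surface, had the largest log2 change of the 35 tested members, 2.54 ± 0.32 (edgeR adjusted p = 9.34e-06). It measured 1.01, 0.56 and 0.69 FPKM in controls, 6.47, 4.31 and 3.95 after OGD, and 6.05, 6.01 and 4.4 in the third group. The lowest OGD library stood well above the highest control. Mx2, a dynamin-like GTPase that blocks viruses, was the most abundant effector, at 14.06, 9.79 and 8.85 FPKM in controls, 32.88, 42.03 and 28.83 after OGD, and 42.93, 34.84 and 30.28 with the added proteins. It rose by a log2 of 1.58 ± 0.21 (edgeR adjusted p = 3.54e-05). Gbp2, a guanylate-binding protein that acts on vacuoles of intracellular pathogens, measured 3.81, 3.72 and 3.3 FPKM, then 10.1, 13.43 and 11.13, and then 12.01, 12.03 and 12.5. Its controls were tight and far from the other groups (log2 1.60 ± 0.12, edgeR adjusted p = 7e-08).

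The other effectors were near or below 2 FPKM. Mx1, the paralog of Mx2, rose by 1.27 ± 0.23 on the log2 scale, from 0.577 ± 0.106 to 1.46 ± 0.431 FPKM. How the authors counted reads common to both paralogs is not stated. Rsad2 (viperin), which makes a chain-terminating nucleotide, rose by 1.58 ± 0.37 (0.417 ± 0.227 to 1.31 ± 0.265 FPKM). Ifit2, which binds viral RNA, rose by 1.02 ± 0.30 (0.287 ± 0.0808 to 0.61 ± 0.173 FPKM). Oas1a, an oligoadenylate synthetase that responds to double-stranded RNA, measured 0.72, 0.18 and 0.06 FPKM in controls and 1.11, 0.91 and 0.59 after OGD. The first control overlapped the OGD libraries, and the log2 change of 1.38 ± 0.62 did not pass (edgeR adjusted p = 0.0628). It was 2.94 without control replicate 1 (adjusted p = 0.00123), 1.61 without OGD replicate 3 (adjusted p = 0.0481) and 0.80 without control replicate 3 (adjusted p = 0.207). Oas1a belongs to a multigene family with near-identical copies, so its reads are uncertain.

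The ISG15 pair and the PARP pair differed in how firmly they were called. Isg15, the ubiquitin-like protein that is conjugated to other proteins, measured 2.04, 0.78 and 1.37 FPKM in controls and 2.29, 2.7 and 2.37 after OGD. The groups did not overlap, but the log2 change was only 0.71 ± 0.29 (edgeR adjusted p = 0.0398). It was 1.07 without control replicate 1 and 0.47 without control replicate 2 (adjusted p = 0.123). The adjusted p was 0.0526 to 0.107 without control replicate 3, OGD replicate 2 or 3, or replicate 2 of the third group. Usp18, the protease that removes ISG15 and dampens the type I receptor, measured 1.31, 0.37 and 0.43 FPKM in controls and 1.24, 1.21 and 0.91 after OGD. The first control was above all OGD libraries, and the change did not pass (log2 0.57 ± 0.43, edgeR adjusted p = 0.24). It was 1.39 without control replicate 1 (adjusted p = 0.00497), 0.32 without control replicate 2 and 0.29 without control replicate 3. Parp9, an ADP-ribosyltransferase family member that works with the ubiquitin ligase Dtx3l, rose by 1.54 ± 0.17 on the log2 scale, from 2.77 ± 0.84 to 8.63 ± 0.958 FPKM. Parp14, a macro-domain member of that family, rose by 1.77 ± 0.12, from 1.5 ± 0.156 to 5.39 ± 0.632 FPKM.

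**Figure D1:**
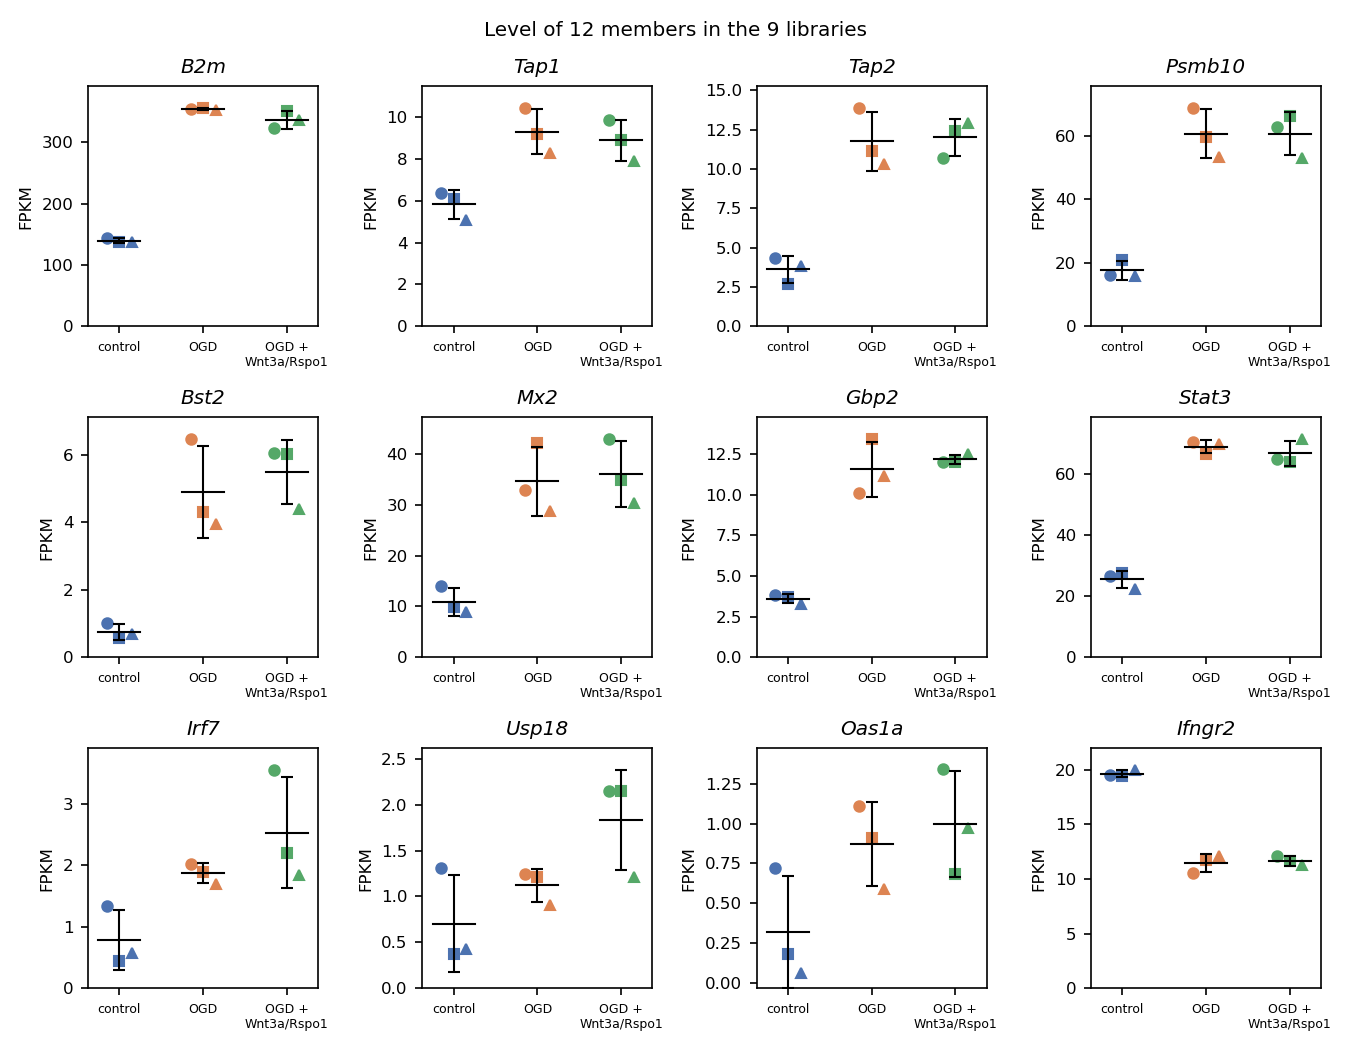
FPKM of 12 members in each of the 9 libraries, in 1 panel per gene with its own axis. Circles, squares and triangles are replicates 1, 2 and 3, the line is the group mean and the bar its SD (n = 3). B2m after OGD lies between 353.44 and 356.49, above controls at 136.89 to 143.91, while Ifngr2 lies lower after OGD and the first control of Usp18 stands above its OGD libraries.

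All 5 class I presentation genes rose. B2m, the light chain common to class I molecules, was the most abundant member, at 143.91, 136.89 and 138.32 FPKM in controls, 353.9, 356.49 and 353.44 after OGD, and 322.86, 351.92 and 336.61 with Wnt3a plus Rspondin 1. OGD libraries varied by under 4 FPKM around a level 2.39-fold that of controls on the fitted scale (log2 1.26 ± 0.07, edgeR adjusted p = 3.21e-09). Nlrc5, the transactivator of class I genes, was scarce, at 0.28, 0.25 and 0.33 FPKM in controls and 1.37, 1.14 and 1.17 after OGD. All its OGD libraries were above controls, and the log2 change was 2.00 ± 0.19 (edgeR adjusted p = 5.9e-07). Tapbp (tapasin), which loads peptides onto class I, rose by 1.18 ± 0.12, from 6.97 ± 0.175 to 17.0 ± 2.73 FPKM.

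The subunits of the peptide transporter rose by different amounts. Tap1 measured 6.35, 6.08 and 5.06 FPKM in controls, 10.44, 9.17 and 8.3 after OGD, and 9.87, 8.89 and 7.91 in the third group. Its log2 change was 0.60 ± 0.13 (edgeR adjusted p = 0.00119). Tap2 measured 4.36, 2.69 and 3.81 FPKM, then 13.89, 11.14 and 10.3, and then 10.68, 12.44 and 12.91. It changed by 1.60 ± 0.17 (edgeR adjusted p = 1.91e-06). Tap1 was above Tap2 in each control library, and below it in each of the other 6. The difference between the changes of Tap1 and Tap2 was not itself tested.

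The immunoproteasome subunits rose while the standard subunits they replace did not pass the test. Psmb8, Psmb9 and Psmb10 take the places of the catalytic subunits Psmb5, Psmb6 and Psmb7, and alter which peptides are cut. Psmb10 measured 16.13, 20.97 and 15.75 FPKM in controls, 68.87, 59.8 and 53.4 after OGD, and 62.79, 66.26 and 53.21 with Wnt3a plus Rspondin 1 (OGD log2 change 1.71 ± 0.14, edgeR adjusted p = 1.39e-07). Psmb8 measured 4.87, 4.78 and 3.87 FPKM in controls and 17.24, 13.03 and 10.66 after OGD (log2 1.52 ± 0.18, edgeR adjusted p = 6.3e-06). Psmb9 measured 4.5, 5.31 and 3.09 FPKM, and then 9.54, 9.5 and 7.54 (log2 0.98 ± 0.21, edgeR adjusted p = 0.00105). The 3 genes thus had no library in common between the ranges of control and OGD. Psmb5, Psmb6 and Psmb7 had log2 changes of 0.02 ± 0.08, 0.11 ± 0.10 and 0.00 ± 0.09 (edgeR adjusted p = 0.86, 0.336 and 0.997).

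Set against its standard counterpart per library, each inducible subunit made up a larger share of the pair after OGD. Psmb10 was 8.27% ± 1.62 (SD, n = 3) of the FPKM of Psmb10 plus Psmb7 in controls, 22.7% ± 4.39 after OGD and 21.3% ± 1.37 in the third group. Psmb8 was 3.37% ± 0.435 of Psmb8 plus Psmb5 in controls, 8.86% ± 1.19 after OGD and 7.87% ± 0.384 with the added proteins. Psmb9 was 3.56% ± 1.05 of Psmb9 plus Psmb6 in controls, 6.21% ± 0.998 after OGD and 6.13% ± 0.822 in the third group. For each pair the highest control share lay below the lowest OGD share, at 10% and 19.8% for Psmb10, 3.7% and 7.78% for Psmb8, and 4.53% and 5.54% for Psmb9. These are shares of RNA and are given as a description.

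**Figure D2:**
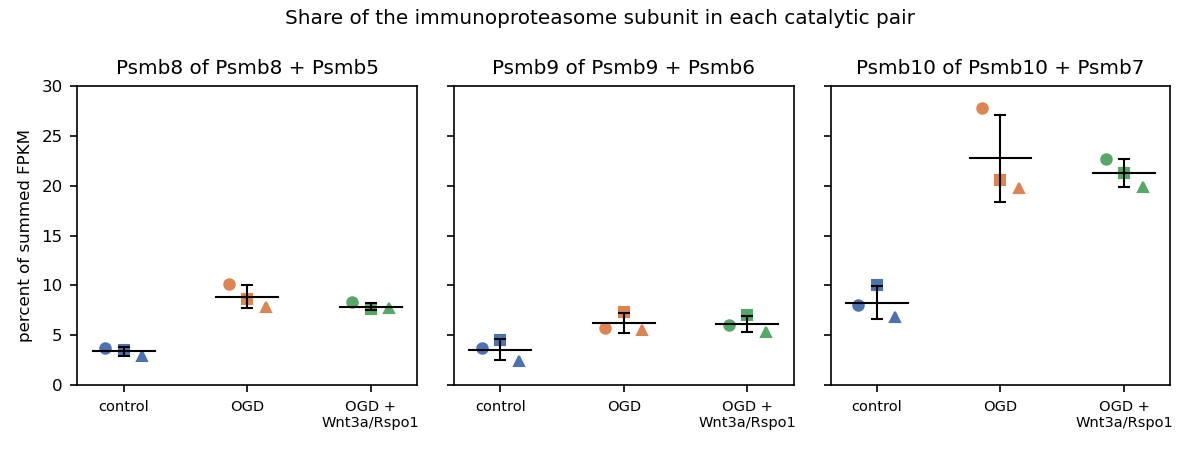
Share (percent) of an immunoproteasome subunit in the summed FPKM of that subunit and the standard subunit it replaces, per library, for the 3 pairs and the 3 groups. Lines are group means and bars SD (n = 3); for Psmb10 the controls reach 10% and the OGD libraries start at 19.8%.

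Other genes of the same pathways, taken from lists by role, were examined beside the members. In these lists 87 genes had enough reads, of which 52 were higher and 9 lower after OGD, with a median log2 change of 0.80. Their shares are 59.8% and 10.3%, beside 36.3% and 36.8% of all tested genes. These lists too were chosen with earlier results known, so the shares are a description. For the single lists the share that was higher ran from 0% to 71.4%, and it was 50% for the JAK-STAT list and 46.2% for class I assembly, not far above that of all genes. The interferons themselves were nearly absent. Of 9 interferon genes with a row, among them Ifnb1, Ifng and 3 alpha interferons, none had more than 3 reads in any library, and none was tested. In the receptor partners and JAK-STAT list, 6 of 12 genes were higher and 2 lower. Socs3, a feedback inhibitor of STAT3, rose by a log2 of 1.89 ± 0.23. The kinase genes Jak1 and Jak2 had changes of -0.07 ± 0.08 and 0.12 ± 0.12 and did not pass. The 2 lower genes were the phosphatase Ptpn1 (-0.27 ± 0.10) and the lambda receptor chain Ifnlr1 (-1.24 ± 0.47, a name chosen after its value was seen). No gene of that list was called lower without control replicate 1 or OGD replicate 2, and 1 was without any other control or OGD library.

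Of 13 nucleic acid sensing genes, 9 were higher and 3 lower. Ddx58, which encodes RIG-I, rose by 1.67 ± 0.13 (2.85 to 9.57 FPKM), Myd88, the adaptor of Toll-like receptors, by 1.80 ± 0.12 (4.18 to 15.3 FPKM) and Mavs, the adaptor of RIG-I and MDA5, by 0.91 ± 0.09. Adar, the RNA-editing enzyme that limits MDA5, was lower, from 33.8 to 23.8 FPKM (-0.59 ± 0.08). The other lower genes, named after their values were seen, were Traf3 (-0.42 ± 0.11), a ubiquitin ligase, and Irf5 (-1.77 ± 0.31). Of 35 further interferon-stimulated genes, 25 were higher. Ifitm3 and Ifitm2, membrane proteins that hinder virus entry, rose by 2.14 ± 0.17 and 1.76 ± 0.16. Ifi27, the most abundant of this list, rose by 1.03 ± 0.32, from 19.4 to 42.3 FPKM. Dtx3l, the partner of Parp9, rose by 1.57 ± 0.15. Tdrd7 had a change of -0.11 ± 0.12 and did not pass.

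Of 9 tested class I heavy chain genes, 6 were higher and 1 lower. RT1-A1 rose by 1.47 ± 0.22 (8.94 to 26.2 FPKM), RT1-A2 by 1.37 ± 0.13, RT1-CE5 by 1.05 ± 0.12 and RT1-M3-1 by 0.74 ± 0.12. The lower gene was RT1-N2 (-1.27 ± 0.27). These genes have near-identical copies, and the counting could split reads between them, so single values are uncertain. Of 13 genes of class I assembly and its regulation, 6 were higher and 1 lower. The proteasome activator Psme1 rose by 1.22 ± 0.10 (43.9 to 109.0 FPKM), the peptide-trimming enzyme Erap1 by 1.53 ± 0.11 and the tapasin relative Tapbpl by 1.39 ± 0.09. The chaperone genes Calr, Canx and Pdia3, which serve all secreted proteins, had changes of 0.07 ± 0.06, -0.02 ± 0.11 and 0.03 ± 0.10 and did not pass. The lower gene was Psme3 (-0.45 ± 0.10), which encodes the activator of nuclear proteasomes, and 2 genes were lower without control replicate 1. Most MHC class II genes had few reads: 2 of 11 genes were tested, of which RT1-DOb was lower (-3.01 ± 0.38) and RT1-DMa did not pass (0.16 ± 0.14). The untested RT1-Da and Cd74 had 21 and 26 reads in OGD replicate 3, and at most 8 in any other library. RT1-DMb, also untested and named after its values were seen, had 1, 1 and 2 reads in controls. It had 8, 10 and 8 after OGD, and 14, 8 and 8 in the third group. No class II gene was called higher, but 2 were with no filter on low counts, 1 was with DESeq2, and 1 was without control replicate 2, OGD replicate 3, or replicate 2 or 3 of the third group.

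**Figure D3:**
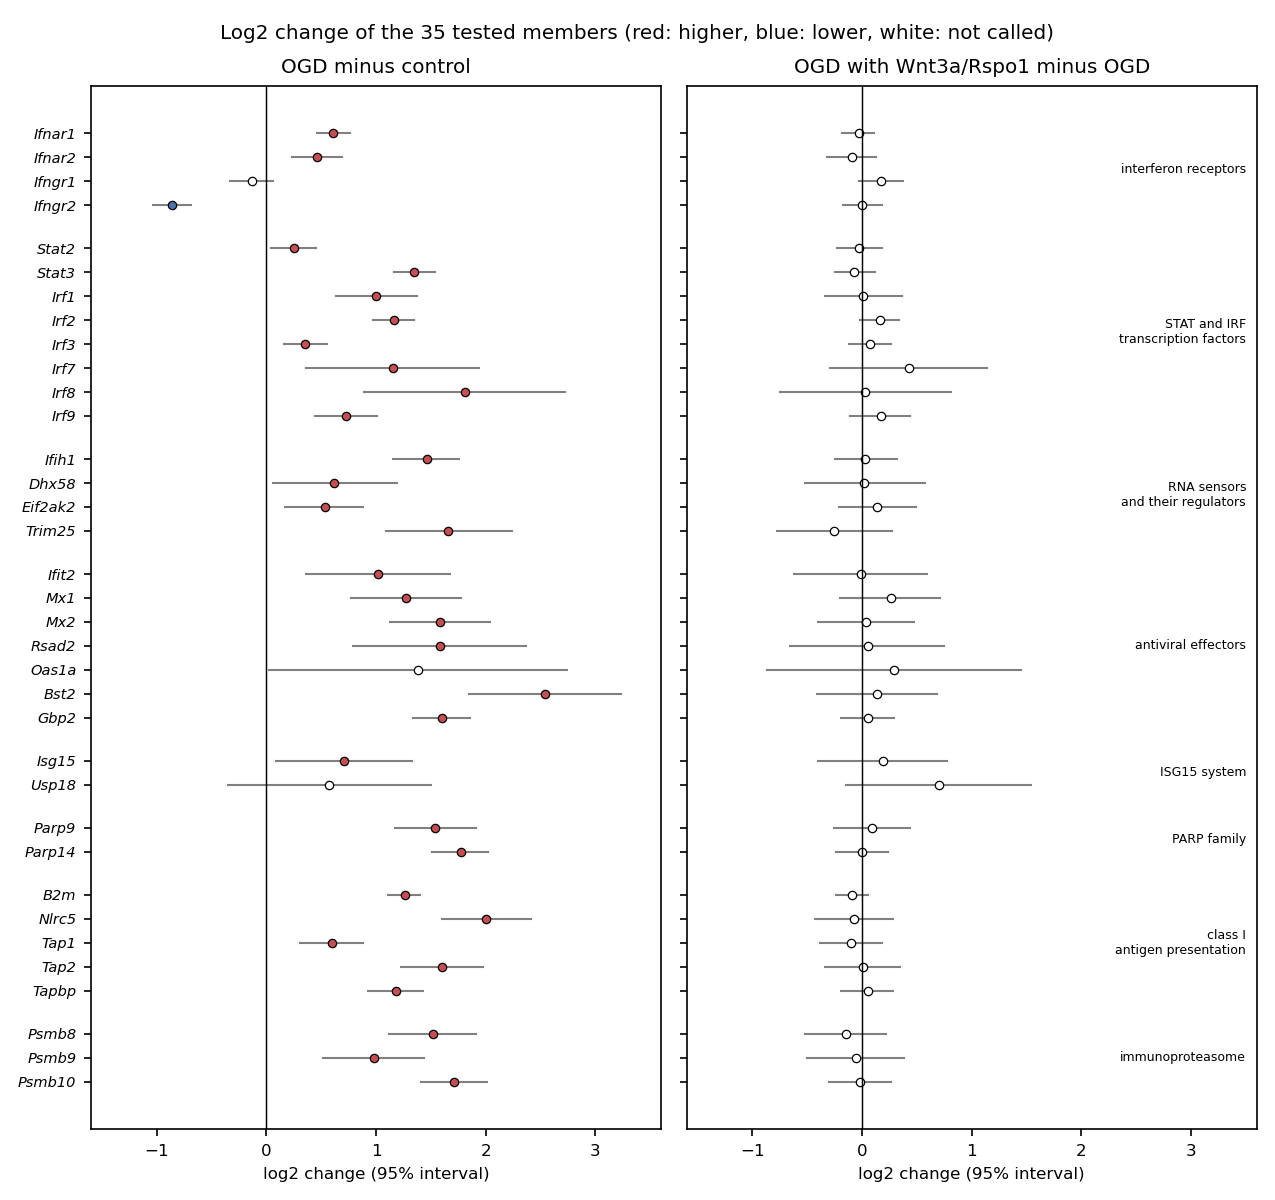
Log2 changes of the 35 tested members with 95% intervals (edgeR), for OGD against control and for Wnt3a plus Rspondin 1 with OGD against OGD, grouped by role. Red marks a member called higher, blue lower and white not called at an adjusted p below 0.05; in OGD against control 31 are higher and Ifngr2 is lower, and in the other comparison none is called.

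Markers of cell types also differed between control and OGD, in both directions. The labels call the cells neurons, and astrocyte markers were also read in controls. There the summed FPKM was 2930 to 3103 for 11 astrocyte markers and 3006 to 3149 for 12 neuron markers. A few abundant genes, such as Gfap (mean 903) and Tubb3 (1205), weigh most in these sums. The sums therefore do not compare numbers of cells between types. After OGD the neuron sum was 517 to 696, and 12 of 12 neuron markers fell (median log2 -2.63). The astrocyte sum was 7029 to 7681, and 9 of 11 astrocyte markers rose while 1 fell (median 1.22). The sum of 13 microglia markers with a row was 13.5 to 17 FPKM in controls and 41.4 to 52.3 after OGD, and all 9 with enough reads rose (median 2.16). Of these, Aif1, Cx3cr1 and Tyrobp had at most 5 reads in any control library. Genes that low in controls pass the filter only through groups where they are higher. This count and median are therefore partly set by the filter. The microglia markers P2ry12, Tmem119, Trem2 and Ptprc had too few reads to test. Of 11 oligodendrocyte lineage markers 7 rose and 2 fell (median 0.87), and their sum was 438 to 527 FPKM in controls and 1123 to 1129 after OGD. Of 8 tested neural progenitor markers 6 rose and 1 fell (median 1.47), with sums of 1047 to 1180 and 4011 to 4578 FPKM. Of 8 tested mural and fibroblast markers 3 rose and 3 fell (median 0.65), with sums of 102 to 126 and 677 to 891 FPKM. Most of these sums came from a single gene, Tagln, with means of 96.8 FPKM in controls and 749 after OGD. Of 4 tested endothelial markers 2 (Kdr and Tek) rose and 1 (Ramp2) fell. Tek, like Acta2 of the mural list, had at most 6 reads in any control library, so the same limit holds. The endothelial sum was 30.4 to 35.1 FPKM in controls and 15.8 to 18.4 after OGD, and Cldn5 of that list had 0 reads in all 9 libraries. Most of the endothelial sum came from Ramp2, with means of 31.1 FPKM in controls and 14.6 after OGD. With the added proteins the sums were 519 to 673 for neurons, 6542 to 6839 for astrocytes and 47.3 to 52 for microglia. They were 1078 to 1172 for the oligodendrocyte lineage, 4027 to 4531 for progenitors, 646 to 765 for mural cells and fibroblasts and 16.2 to 17.2 for endothelium. The part of these marker changes in the members' changes was not tested. In such bulk samples, fewer cells of a type and less RNA per cell cannot be told apart.

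The first control library stood above the other controls for many members, a pattern chosen after the values were seen. In scaled CPM it was the highest control for 27 of the 35 tested members (77.1%), and for 39.2% of all tested genes. It was at least 1.5 times the mean of the other 2 controls for 10 members (28.6%), and for 311 of all tested genes (2.27%). The ratio was 6.33 for Oas1a, 3.34 for Usp18, 2.67 for Irf7, 2.29 for Rsad2, 2.09 for Dhx58 and 1.98 for Trim25. It was 1.95 for Isg15, 1.7 for Bst2, 1.58 for Parp9 and 1.55 for Mx2. In the OGD group the first library was that high for 1 member (2.86%), beside 3.31% of all tested genes. In the third group it was that high for 3 members (8.57%), beside 2.15% of all tested genes. These were Irf7 (1.76), Oas1a (1.72) and Trim25 (1.5). Without the first control library, 33 members were higher after OGD, Oas1a and Usp18 included, and Ifngr2 stayed the only lower one.

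**Figure D4:**
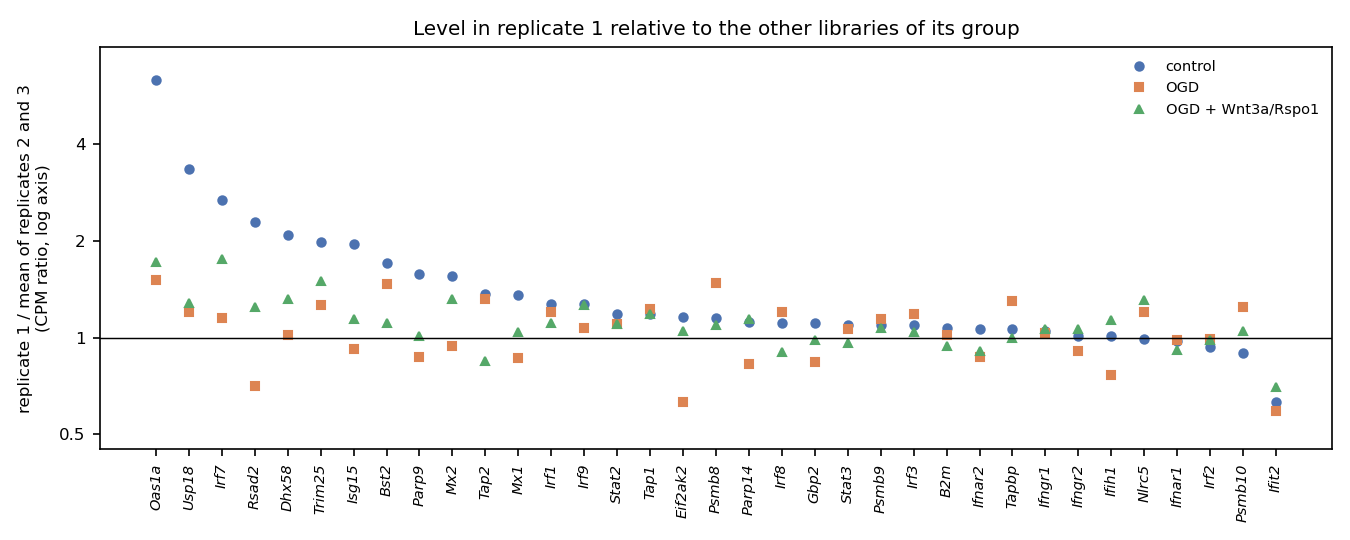
Replicate 1 of each group divided by the mean of replicates 2 and 3, in scaled CPM on a log axis, for each of the 35 tested members. Points at 1 mean no difference; in controls Oas1a stands at 6.33 and Usp18 at 3.34.

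With Wnt3a plus Rspondin 1 under OGD, no difference from OGD alone was detectable in these genes with 3 libraries a group. None of the 35 tested members passed (edgeR, Benjamini-Hochberg), none had an unadjusted p below 0.05 by edgeR or by DESeq2, and the median log2 change was 0.03. Few genes passed at all: 0.175% of all tested genes were higher (24) and 0.0219% were lower (3), so a count of 0 among 35 is near the background. The count of higher genes was 38 without OGD replicate 1, 10 without OGD replicate 2 or without replicate 2 of the third group, and 13 without replicate 3 of the third group. That of lower genes was 11 without OGD replicate 1 and 5 without replicate 1 of the third group. The smallest unadjusted p was that of Irf2, 0.0712 (edgeR adjusted p = 0.941), with a log2 change of 0.16. The authors' deposited table also lists no member below a false discovery rate of 0.05 here.

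The intervals limit how large an effect could have been missed. For 23 members the 95% interval of the log2 change lay within 0.5 of 0, and for 32 within 1. B2m had a log2 change of -0.09 with an interval from -0.24 to 0.05, Ifnar1 -0.03 (-0.18 to 0.11) and Stat3 -0.07 (-0.25 to 0.12). Psmb10 had -0.02 (-0.30 to 0.26) and Gbp2 0.05 (-0.19 to 0.29). The extremes were Usp18 and Trim25. Usp18 measured 2.15, 2.15 and 1.21 FPKM in the third group against 1.24, 1.21 and 0.91 after OGD alone. These ranges overlap, and the log2 change of 0.70 had an interval from -0.15 to 1.54. Trim25 measured 5.52, 3.82 and 3.53 FPKM against 5.81, 4.8 and 4.62, a log2 change of -0.26 (-0.78 to 0.27). Irf7 and Oas1a were likewise loosely bounded, at 0.43 (-0.29 to 1.14) and 0.29 (-0.87 to 1.45). In FPKM, Ifngr1 and Irf9 had all 3 libraries of the third group above all 3 of OGD alone, and B2m had all 3 below, with log2 changes of 0.17, 0.17 and -0.09 that did not pass. Of all tested genes, 5.86% were apart in this way above and 3.87% below, so these members are near the background. Both comparisons use the same 3 OGD libraries. Of the 52 higher and 9 lower genes of the other pathway lists in OGD, none was called in this comparison.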

How the data were processed

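RNA was sequenced from 9 libraries in 3 groups of 3, prepared with a TruSeq kit from 1 µg of total RNA, per the labels' protocols. Per the submitters' processing notes, Bowtie 0.12.2 is among the tools, and 2 builds of the mouse genome (mm8, mm9) are listed there although samples and gene identifiers are rat. Rat build, annotation and counter are not given in the sources used here. Neither is the use of strand, so reads of overlapping or antisense genes may be mixed.

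The authors deposited whole-number counts and FPKM per gene and library, per the file headers, with a log2 fold, a p-value and an FDR per pair of groups, from a test not given in the sources used here. Those results are quoted only as the authors' deposited table. Columns were matched to samples by name.

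Counts were tested with edgeR 4.0.16 in R 4.3.3: filterByExpr (minimum count 10), which left 13693 of 17332 genes with a read, TMM scaling (factors 0.9435 to 1.033), and 1 robust quasi-likelihood fit of 3 group means over all 9 libraries, with 6 residual degrees of freedom. Adjustment was by Benjamini-Hochberg over all tested genes, with a threshold of 0.05. Log2 changes are fitted, with a prior count of 0.125. Errors are SE for log2 changes and SD over 3 libraries for FPKM. Motifs were searched in RefSeq promoter windows. In counts simulated for OGD against control, 69, 68 and 63 of 13533 genes were changed by log2 0.5, 1 and 2. The fit recovered 42%, 79.4% and 96.8% of these, and 8 of its 152 calls were unchanged genes. Far more genes, 36.3% higher and 36.8% lower, were called in the real OGD comparison, so these rates need not hold there. In the simulation of the third group beside OGD alone, 79, 59 and 62 of 13550 genes were changed by the same amounts. Of these, 45.6%, 86.4% and 96.8% were recovered, and 12 of 159 calls were unchanged genes.

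The members and lists were chosen with earlier results of these data known. All members are reported, and 2 genes of the pathway lists are not reported here. Of each pathway list, up to 4 genes with the highest mean FPKM and up to 3 with the smallest adjusted p in OGD were named. Alternatives were other scalings, no filter, DESeq2 1.42.0, the 6 libraries compared, a replicate block and leaving out each library.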

Additional observations from a re-analysis of the deposited data

How the results depend on the processing

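In OGD against control, 27 of the 32 called members were called under every alternative run, and no called member changed direction. Of 560 member fits, 535 stayed on the same side of the threshold, 19 lost the call (Stat2, Dhx58, Isg15, Irf7 and Eif2ak2) and 6 gained it (Oas1a and Usp18). The members called higher numbered 27 to 33 when 1 library was left out, and 1 was lower each time. Dhx58 also missed with no filter on low counts (edgeR adjusted p = 0.0608), and with only the 6 libraries compared Dhx58 (0.0574) and Isg15 (0.0536) missed. The same-numbered libraries did not deviate together in every pair (correlations from -0.0688 to 0.273), so the numbers were not taken to pair the samples. Between OGD and the third group, however, same-numbered libraries were all positively correlated (0.0734 to 0.267). The other pairs of these groups were all negatively correlated (-0.0236 to -0.238). Whether these 2 groups were paired is not known, and a replicate block was run as an alternative. With a replicate block, 32 members were higher after OGD, and Oas1a was called (log2 1.54, edgeR adjusted p = 0.0152).

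With Wnt3a plus Rspondin 1 against OGD, no member was called under any alternative, and the uncalled log2 change altered sign for 21 members, with an absolute value of at most 0.20 there. Over all genes, 24 higher and 3 lower became 60 and 39 with DESeq2, and 43 and 22 with the replicate block. Higher genes were 12 with only the 6 libraries compared, and 13 without the first control and first Wnt3a plus Rspondin 1 library together, an alternative chosen after seeing the data. Lower genes were 5 with RLE size factors and 7 with no filter. Leaving out 1 library at a time gave 10 to 38 higher and 2 to 11 lower. The causes were not tested. Oas1a, Usp18, Irf8, Rsad2 and Irf7 had the largest SE in OGD against control. Depth limits what can be said of Ifit3, Oasl and the interferon genes.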
